A study of Mus musculus with 384 samples.

Results

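The nuclear genes of the mitochondrial respiratory chain were examined in single cells that had been sorted from spinal cord of Optn knockout mice. Members were taken by symbol: every gene of the deposited table that starts with Nduf, Uqcr, Cox4 to Cox8 or Atp5, together with Sdha, Sdhb, Sdhc and Sdhd, with pseudogene symbols left out. This rule uses no measured value and gave 92 of the 23420 genes. They comprise 38 genes of complex I (Ndufa4 is kept there by its symbol, although the protein is now placed in complex IV), 7 Ndufaf assembly factors of complex I, 4 genes of complex II, 8 of complex III, 18 of complex IV and 15 of complex V. The prefix also takes in 2 further genes, Atp5s and Atp5sl.

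The respiratory chain sits in the inner mitochondrial membrane. Complexes I and II take electrons from NADH and succinate, complex III hands them to cytochrome c, complex IV passes them to oxygen, and complex V uses the resulting proton gradient to make ATP. Complexes I, III, IV and V combine nuclear subunits with subunits encoded in mitochondrial DNA, whereas complex II is nuclear only. Mature neutrophils are known for few mitochondria and a reliance on glycolysis, and their precursors in bone marrow and monocytes for more oxidative metabolism.

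Every cell has the genotype label Optn KO. Cells of other genotypes were not analysed here, and the knockout's effect could not be measured. Spinal cords were dissociated with Accutase and freed of myelin, and cells stained for CD45, CD11b and CX3CR1 were sorted by flow cytometry into plates for SmartSeq2, a full-length cDNA method. Of 384 labelled cells, 326 have values: 154 in replicate 1 (plates 1 and 2) and 172 in replicate 2 (plates 3 and 4). The labels do not say whether the 2 replicates are separate mice, so p-values measure only the spread between these samples, which may be technical. The labels used here give neither the design of the knockout nor the age of the mice.

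Values are TPM, transcript abundance corrected for length and scaled to a total of 1000000 in every cell, so that sequencing depth is unknown and the number of genes above 0 (median 1681, range 675 to 5707) stood in for it. The series title names microglia, but Sall1 was above 0 in no cell, P2ry12 and C1qa in 0 and 1 of the 40 cells with little S100a8 and S100a9, and no cell had 3 of 13 microglia markers. No cell is called microglia here, and cells were divided by the genes below. Neutrophils were cells in which S100a8 and S100a9, the subunits of calprotectin, summed to at least 10000 TPM; no cell lay between 4019 and 12512 TPM. Neutrophils with Mki67, a proliferation marker, at 1 TPM or more were called cycling (32 cells). The rest were divided by the mean log2(TPM + 1) of Camp, Ngp, Ltf and Lcn2, which encode granule proteins made during maturation in bone marrow: granule-low below 5 (69 cells), granule-intermediate from 5 to 10 (66 cells) and granule-high from 10 (119 cells). The other 40 cells had a median of 8.5 of 10 monocyte markers above 0, and 30 of them had at least 3; Ccr2 was above 0 in 28 and Csf1r in 32, while 2 cells had at least 3 B-cell and 3 at least 3 T- or NK-cell markers. Optn was listed at 0 in every cell.

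Respiratory chain transcripts formed a small part of each library. The 92 genes summed to a mean of 8734 TPM per cell, or 0.873% of the total, and a cell had a median of 15 of them above 0. Cox4i1, the regulatory subunit of complex IV that is expressed in most tissues, had the highest mean, 623 TPM, and was above 0 in 194 of the 326 cells. Cox8a, a small complex IV subunit, followed with 451 TPM in 214 cells, and Cox7a2l, a factor of supercomplex assembly, with 261 TPM in 125 cells. In complex V the leaders were Atp5b, the catalytic beta subunit (414 TPM), Atp5c1, the gamma subunit of the central stalk (307 TPM), and Atp5h, subunit d of the peripheral stalk (299 TPM). These 6 genes were the most abundant of all members.

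The other complexes were led by lower values. In complex I these were Ndufb7 (196 TPM), Ndufb9 (160 TPM) and Ndufa7 (132 TPM), which are accessory subunits. Complex III was led by Uqcrc1, a core protein (174 TPM), and Uqcrh, the hinge protein (141 TPM). In complex II, Sdhb, the iron-sulphur subunit, had 179 TPM and was above 0 in 109 cells, whereas Sdhc, a membrane anchor, had 16.2 TPM in 23 cells. TPM is per length, so that these levels can be set beside each other.

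The isoforms known from striated muscle, lung, testis or hypoxic cells were at or near 0. Cox4i2, Cox6a2, Cox7b2, Cox8b and Ndufa4l2 were listed at 0 in all 326 cells, which allows a share of up to 0.920% of cells with a value above 0. This limit covers counting error only and takes the cells as independent, and a 0 may be a failed estimate. Cox7a1 and Cox8c were each above 0 in 1 cell and Cox6b2 in 11 cells. Their widely expressed counterparts Cox6a1 (157 cells), Cox6b1 (131 cells) and Cox8a (214 cells) were all detected. Of the complex I assembly factors only Ndufaf7, a methyltransferase that modifies a core subunit, reached the level needed for testing.

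The classes differed in how many members they showed and in how much of the library they took. Granule-low cells had a median of 9 members above 0, and the members summed to 7627 TPM in replicate 1 and 6768 TPM in replicate 2. Granule-intermediate cells also had 9, with 5784 and 5495 TPM, and granule-high cells had 21, with 8155 and 7085 TPM. Cycling neutrophils had 37.5, with 11286 and 8808 TPM, and the other cells had 49, with 18577 and 19811 TPM. The order was the same in both replicates; granule-low and granule-high cells overlapped, and the other cells lay above every neutrophil class.

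**Figure D1:**
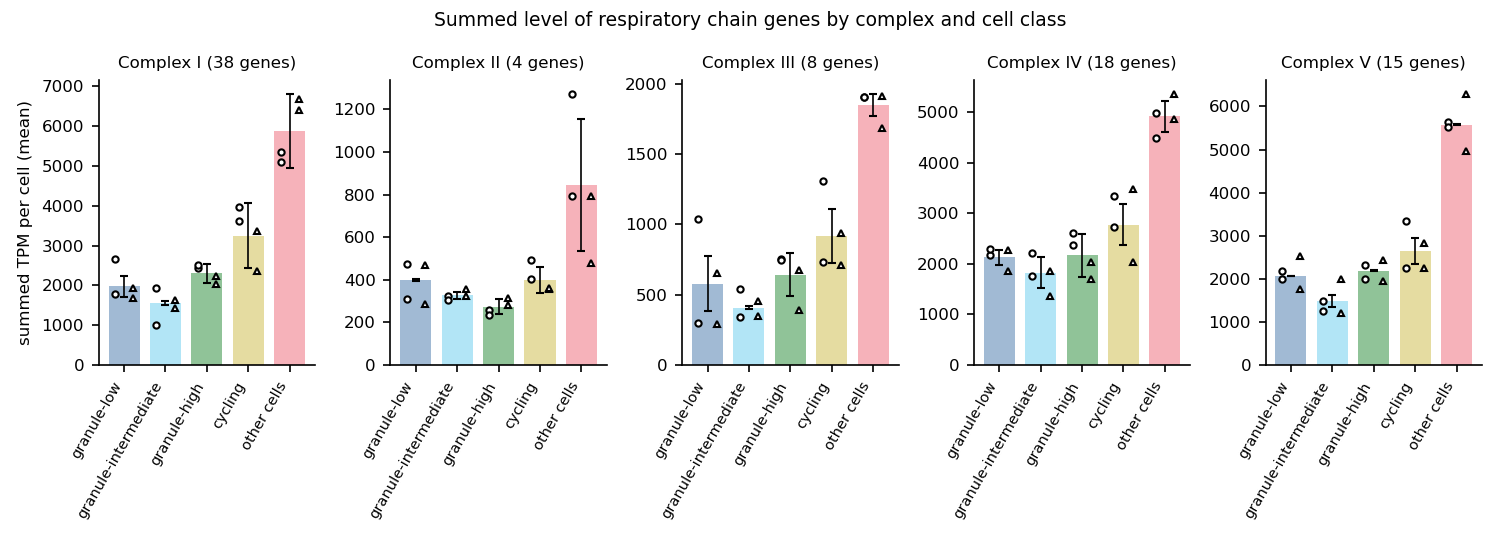
Summed mean TPM per cell of the members of complexes I to V (vertical axis, a separate linear scale in each panel) in the 5 cell classes (horizontal axis). Bars are means of the 2 replicates, error bars their SD, and points the 4 plates (circles for replicate 1, triangles for replicate 2); in complexes I, III, IV and V all 4 plates of the other cells lie above all plates of the neutrophil classes.

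Other properties of the cells moved with these classes. The median number of genes above 0 was 1353 in granule-low, 1505.5 in granule-intermediate, 1893 in granule-high, 2425 in cycling and 3027.5 in other cells. A set of 9 abundant transcripts (S100a8, S100a9, Camp, Ngp, Ltf, Lcn2, Lyz2, Retnlg and the ribosomal Rn45s) took a mean of 15.4%, 26.9%, 40.5%, 38.3% and 8.58% of TPM in the same order. A larger share for these genes leaves less for every other gene. The part of either in the levels was not tested by a model, but values among cells with 1000 to 2500 genes and after rescaling are given below. That range does not match gene numbers between the neutrophil classes. Inside it, Spearman's rho between granule level and genes above 0 was 0.72, 0.74, 0.72 and 0.67 in non-cycling neutrophils of plates 1 to 4.

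**Figure D2:**
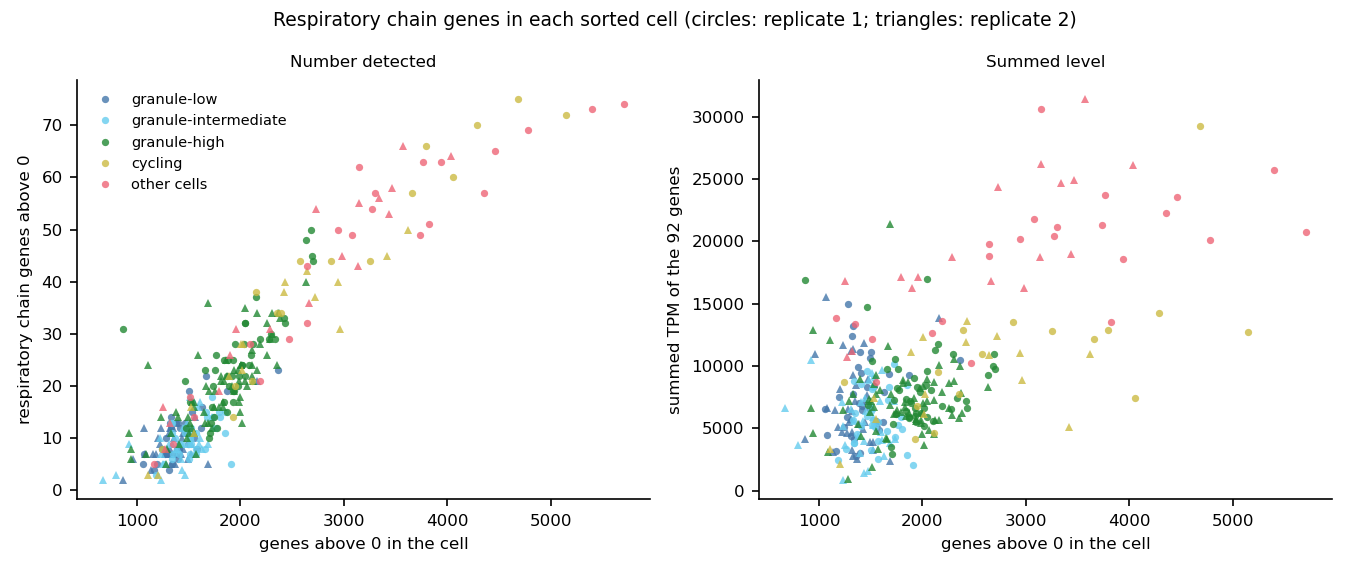
Each point is 1 of the 326 cells, coloured by class, with circles for replicate 1 and triangles for replicate 2. The number of members above 0 (left) and the summed TPM of the 92 members (right) are plotted against the number of genes above 0 in the cell. The number of members follows the number of genes in every class. The other cells (red) mostly take higher summed TPM than neutrophils with similar numbers of genes, but single cells overlap.

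Of the 4 comparisons made, that of the other cells with the 3 non-cycling neutrophil classes gave the highest ratio. The members summed to 2.58 times as much in the other cells in replicate 1 and to 3.07 times in replicate 2, a mean of 2.83 ± 0.345 (SD, n = 2), and plates ranged from 2.52 to 3.08. By complex, the ratio of sums was 2.53 and 3.61 for complex I, 3.32 and 1.83 for complex II, 3.04 and 3.92 for complex III, 2.09 and 2.80 for complex IV, and 2.96 and 2.87 for complex V in replicates 1 and 2. All 5 sums were above those of the neutrophils in both replicates, and complex II had the widest spread between replicates.

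Single genes were tested on class averages per replicate with limma, all classes in 1 fit, with Benjamini-Hochberg adjustment over the 4627 genes that passed a filter on low values. Of the 92 members, 72 passed it. Between other cells and non-cycling neutrophils, 33 of the 72 rose in the other cells at an adjusted p under 0.05 and none fell; of all genes tested, 13.9% rose and 7.02% fell, 21% in all. All 72 fitted log2 folds were above 0, with a median of 1.92 against 0.47 over all genes tested. With no filter on low values, 83 of 87 member folds were above 0 and 4 below. With non-cycling neutrophils as 1 class, the medians were 1.499 for the members and 0.285 over all genes.

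**Figure D3:**
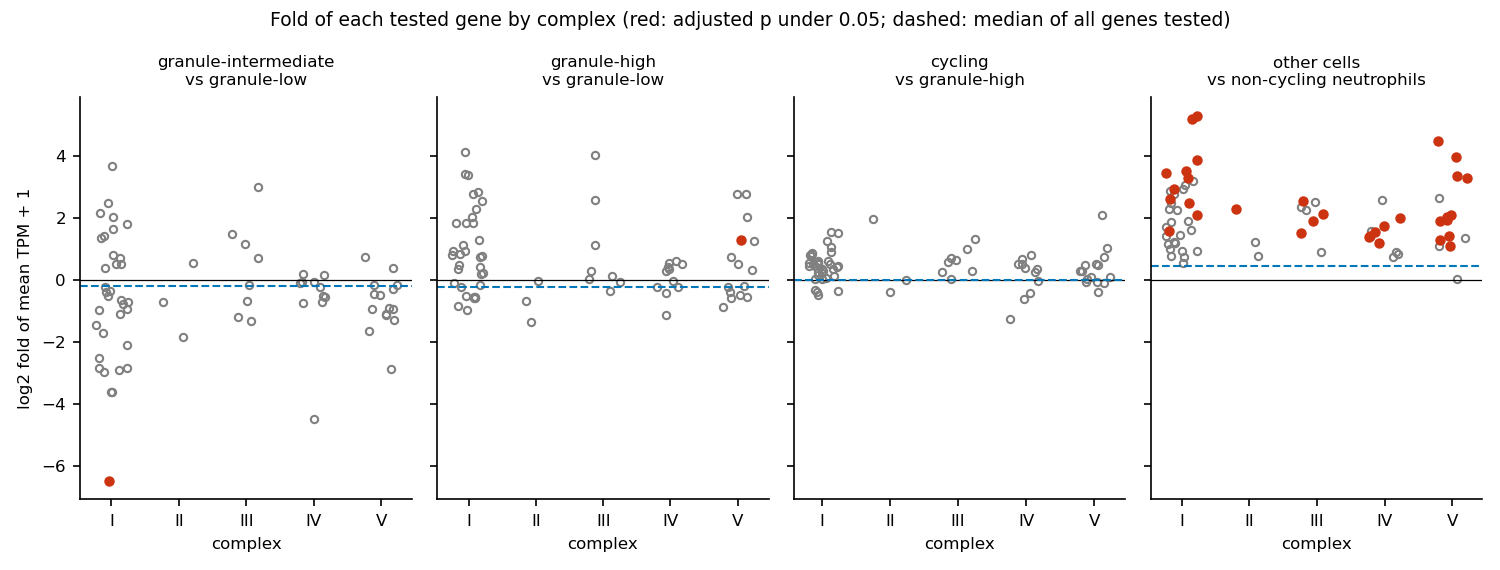
Fitted log2 fold of mean TPM + 1 (vertical axis) for each tested gene of complexes I to V (horizontal axis) in the 4 comparisons. Red points have an adjusted p under 0.05, the dashed line is the median of all genes tested and the solid line is 0; in the rightmost panel all points lie above 0, and in the other panels 1 red point or none is seen.

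The rise reached every complex. It was called for 11 of 34 tested genes of complex I, 1 of 3 of complex II, 4 of 8 of complex III, 6 of 11 of complex IV and 11 of 15 of complex V. The plain ratio of mean TPM, averaged over the replicates, ran from 1.86 to 18.2 among the 33 genes, with a median of 4.04, and was above 1 in both replicates for all 33. Of the 33, 8 had at least 1 neutrophil class average of 0: Ndufs3, Ndufc2, Ndufc1, Ndufa11, Ndufa12, Ndufa2, Atp5g1 and Atp5o. The size of their fitted folds depends on the 1 TPM added before the logarithm.

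In complex V the called genes covered the catalytic head, the stalks and the membrane ring. Atp5a1, the alpha subunit, had 736 and 551 TPM in the other cells (replicates 1 and 2) against 177 and 140 TPM in the non-cycling neutrophils, with a log2 fold of 2.03 (SE 0.32, limma adjusted p = 0.00281). Atp5h had 686 and 701 TPM against 253 and 211 TPM, with a log2 fold of 1.92 (SE 0.26, limma adjusted p = 0.00115, the lowest of the 72 members). The groups did not overlap for either gene. Subunit c, which forms the rotating ring, is encoded by Atp5g1, Atp5g2 and Atp5g3, and all 3 genes rose. Atp5g2 had 452 and 391 TPM against 38.0 and 52.8 TPM, and was above 0 in 28 of 40 other cells and in 28 of 254 non-cycling neutrophils. Atp5g1 had 153 and 173 TPM against 9.37 and 23.9 TPM, and Atp5g3 126 and 267 TPM against 27.3 and 37.8 TPM. Atp5o, the oligomycin-sensitivity subunit, had 233 and 284 TPM against 49.2 and 49.1 TPM, and its call was lost in 13 of 23 alternatives. In contrast Atp5l, subunit g, did not pass the test, with 176 and 351 TPM against 215 and 250 TPM.

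In complex I the called genes with the highest fitted folds were Ndufs3 and Ndufc2, both with neutrophil class averages of 0. Ndufs3, a core subunit of the peripheral arm, had 302 and 178 TPM in the other cells and 26.0 and 12.9 TPM in the non-cycling neutrophils, and was listed at 0 in granule-intermediate cells. Ndufc2, an accessory subunit of the membrane arm, had 176 and 324 TPM against 9.27 and 18.6 TPM. It was above 0 in 21 of 40 other cells and in 12 of 254 non-cycling neutrophils. Both genes were sparse in neutrophils, so that the ratios of 12.7 ± 1.52 for Ndufs3 and 18.2 ± 1.07 for Ndufc2 (SD, n = 2) rest on few neutrophils. Ndufc2 was above 0 in 40 cells in all and Ndufs3 in 37, of which 21 and 18 were other cells. Both passed the filter only with the other cells counted. The same held for Ndufc1 (35 cells, 16 of them other cells), Ndufa12 (34 and 12) and Atp5g1 of complex V (43 and 19). The accessory subunits Ndufc1, Ndufa11, Ndufa12 and Ndufa2 also rose, with mean ratios of 8.29, 8.73, 4.39 and 3.37. The core flavoprotein subunit Ndufv2 had 156 and 155 TPM against 18.3 and 41.9 TPM, and rose as well (limma adjusted p = 0.0342). Ndufb7, the most abundant complex I member, did not pass the test, with 199 and 301 TPM against 176 and 191 TPM.

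Complexes II, III and IV held 11 further called genes. Sdha, the flavoprotein of succinate dehydrogenase, had 401 and 140 TPM in the other cells against 41.4 and 70.4 TPM, with a log2 fold of 2.29 (SE 0.55, limma adjusted p = 0.0185). The 2 replicates of the other cells differed more than those of the neutrophils, yet did not overlap with them. Sdhb (397 and 214 TPM against 163 and 167 TPM) and Sdhd (212 and 229 TPM against 103 and 83.8 TPM) did not pass the test, and Sdhc was too sparse to be tested. In complex III, Uqcrc1 had 501 and 400 TPM against 90.8 and 153 TPM, and Uqcrfs1, the Rieske iron-sulphur protein, 217 and 388 TPM against 70.5 and 84.9 TPM. Uqcrq and Uqcrh rose as well. In complex IV the called genes were Cox4i1, Cox5b, Cox6b1, Cox6c, Cox7a2l and Cox7c. Cox4i1 had 1209 and 1529 TPM against 625 and 379 TPM, with a log2 fold of 1.55 (SE 0.31, limma adjusted p = 0.00958). Cox8a had 672 and 724 TPM against 428 and 385 TPM and did not pass the test. The mean ratios of these 2 abundant genes were 2.99 ± 1.49 and 1.73 ± 0.221 (SD, n = 2), below those of the sparse complex I genes named above.

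**Figure D4:**
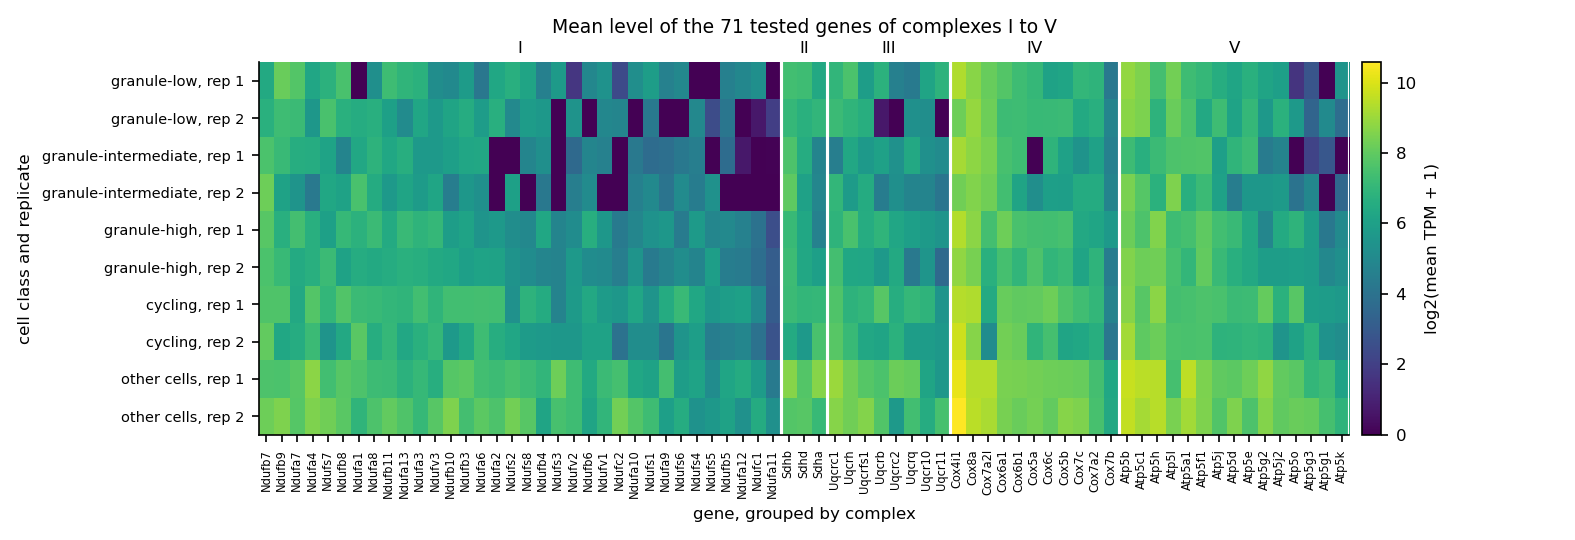
Mean TPM as log2(mean TPM + 1) (colour scale) of the 71 tested genes of complexes I to V (columns, grouped by complex and ordered by mean level) in each cell class and replicate (rows). The lower pair of rows, the other cells, is brightest across nearly all columns, and dark cells mark class averages at or near 0, most of them in granule-low and granule-intermediate neutrophils.

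Annotated exons of several of these genes overlap another gene on the opposite strand (Ndufs3 with Kbtbd4, Ndufa2 with Tmco6, Ndufa11 with Vmac, Cox4i1 with Emc8), and those of Atp5o overlap Donson on the same strand (GENCODE, GRCm38). Whether the counting used strand is not given in the sources used here, so reads of such pairs may not be told apart.

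The size of the difference changed with the scale and with the cells used. With the 9 abundant genes taken out and each cell rescaled, the ratio of summed TPM was 1.92 and 2.36 and 20 members were called. There 71 of 72 folds were above 0 with a median of 1.57, against 0.15 over all genes, of which 470 rose and 468 fell in place of 645 and 325. With median-ratio scaling 26 members were called, and of all genes 515 rose and 422 fell. Among cells with 1000 to 2500 genes, 7 other cells in each replicate, the ratio was 1.71 and 2.43, and that of complex II was 4.30 and 0.658. There 2 members rose (Atp5j2 and Uqcrq) and 1 fell (Uqcr10) of 56 tested, with 37 folds above 0 and 19 below; of all genes 137 rose and 422 fell, 14.6% of 3833. The members' median was 0.57, and that of all genes -0.48. With rescaling and this gene range together the ratio of sums was 1.25 and 1.83. In cells with 1000 to 1500 genes the summed TPM had a median of 13373 in 5 other cells, against 5599 to 6909 in the 3 non-cycling neutrophil classes, although the number of members above 0 was 9 in the other cells and 8 to 12 in those neutrophils.

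Proliferation also differed between these cells. Mki67 was at 1 TPM or more in 11 of the 40 other cells, and by construction in none of the non-cycling neutrophils. Without those 11 cells the ratio of summed TPM was 2.22 and 2.89, and 19 of 68 members were called, beside 16.9% of all genes. With only the other cells that had 3 or more monocyte markers, 47 of 73 members were called, beside 27.3% of all genes. Without replicate 1, 3 members were called (Atp5h, Cox4i1 and Ndufa2), and 7.29% of all genes. Without replicate 2, 14 members were called, and 12.7% of all genes. The members' median log2 fold was 2.04 and 2.12 in these fits, with 64 of 64 and 71 of 74 folds above 0. Both fits took the 2 plates of the remaining replicate as units. Their calls therefore measure the spread between plates of 1 sample and not between samples.

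Among non-cycling neutrophils the members' mean log2(TPM + 1), which counts detection as well as level, was compared with the granule level, and so was their summed TPM. Over cells, Spearman's rho between granule level and the members' mean log2(TPM + 1) was 0.68, 0.64, 0.58 and 0.69 on plates 1 to 4 (60, 55, 66 and 73 cells). The number of genes above 0 gave 0.73, 0.76, 0.78 and 0.73 with the members' mean, and 0.72, 0.75, 0.69 and 0.64 with the granule level. The summed TPM of the members gave 0.20, 0.12, -0.03 and 0.25 with the granule level. These are descriptions over cells that share plates and libraries, and genes detected moved with both measures.

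Between granule-high and granule-low cells the members summed to 1.07 and 1.05 times as much in replicates 1 and 2, and plates ranged from 0.836 to 1.26. Complex II was the only one of the 5 below 1 in both replicates, at 0.619 and 0.755; complex I stood at 1.14 and 1.19. Of the 72 tested members 1 rose and none fell, against 2.92% and 3.59% of all genes tested (6.51% in either direction). The median log2 fold of the members was 0.36, with 45 above 0 and 27 below, against -0.21 over all genes.

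The member called was Atp5h (ENSMUSG00000034566.10, at chr11:115415689-115419962 on the minus strand of GRCm38). Its mean TPM was 170 and 114 in granule-low cells, 147 and 107 in granule-intermediate cells, 384 and 307 in granule-high cells and 423 and 295 in cycling cells (replicates 1 and 2). Granule-high cells lay above granule-low cells in both replicates, and 58 of 119 against 8 of 69 cells had a value above 0. The log2 fold was 1.29 (SE 0.32, limma adjusted p = 0.0449). The call was lost in 10 of 20 alternatives, among them both fits that left out a replicate. The next members by unadjusted p were Atp5f1 (log2 fold 1.28, limma adjusted p = 0.0774) and Uqcrc2 (4.05, limma adjusted p = 0.0792), which did not pass. Uqcrc2, a core protein of complex III, had 23.5 and 0 TPM in granule-low and 76.5 and 85.2 TPM in granule-high cells. With an average of 0 in replicate 2, the size of its fitted fold depends on the 1 TPM added before the logarithm.

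The scale bears on this comparison, since the 9 abundant genes take more of granule-high than of granule-low libraries. After rescaling without them, the ratio of summed TPM was 1.62 and 1.55, 66 of 72 member folds were above 0 and 4 members rose (Atp5f1, Atp5g3, Atp5h and Ndufb7). The median of all genes moved from -0.21 to 0.26 and that of the members from 0.36 to 0.97, so the members stood above all genes on both scales. Of all genes, 208 then rose and 101 fell, in place of 135 and 166. Complex II lay at 0.919 and 1.06 on that scale. With median-ratio scaling, 57 folds were above 0 and 3 members rose; of all genes, 187 rose and 100 fell. Among cells with 1000 to 2500 genes the ratio of sums was 1.02 and 1.04. The members' median log2 fold there was 0.11, with 30 folds above 0 and 26 below, against -0.28 over all genes. That range left gene numbers unmatched, as given above. Among cells with 1500 to 2200 genes, with 7 and 5 granule-low cells, the members' median was 1.61, against 0.74 over all genes. There 50 of 63 folds were above 0 and 13 below, and no member passed, beside 0.0501% of all genes.

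Granule-intermediate cells had the lowest sum over all members; in complex II granule-high cells were lower, at 249 and 298 TPM against 313 and 339 TPM. Relative to granule-low cells the ratio was 0.758 and 0.812, and it was below 1 on all 4 plates (0.654 to 0.827) and in all 5 complexes in both replicates; after rescaling it was 0.859 and 0.977, and only complex V stayed below 1 in both replicates (0.765 and 0.935). Among cells with 1000 to 2500 genes the ratio over all members was 0.758 and 0.795. In replicate 1 that range kept all 35 granule-intermediate and all 32 granule-low cells, so 0.758 only repeats the main value. In the main fit the median log2 fold of the members was -0.48, with 22 above 0 and 50 below, against -0.18 over all genes. Of the 72 tested members none rose and 1 fell, against 0.432% and 0.454% of all genes (0.886% in either direction). Of all genes 20 rose and 21 fell, and 27 and 17 after rescaling or 35 and 21 with median-ratio scaling.

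The member that fell was Ndufa2, an accessory subunit of the peripheral arm of complex I. It was listed at 0 in all 66 granule-intermediate cells. Its mean TPM was 78.0 and 100.1 in granule-low cells (9 of 69 cells above 0), 51.1 and 67.5 in granule-high cells (32 of 119), 167 and 94.1 in cycling cells (16 of 32) and 151 and 198 in other cells (22 of 40). The limma adjusted p was 0.00346. No fold is given against a class listed at 0, and the difference rests on 9 granule-low cells.

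Cycling neutrophils were set against granule-high cells, since 26 of the 32 had a granule level of 10 or more. Their members summed to 1.38 and 1.24 times the granule-high level, and plates ranged from 1.20 to 1.53. The median log2 fold was 0.41, with 58 members above 0 and 14 below, against -0.000582 over all genes. None of the 72 passed the test with limma (4 had an unadjusted p under 0.05), and of all genes tested 0.0432% rose and 0.0432% fell (0.0864% in either direction), Mki67 among those that rose by construction. Only averages of log values gave calls, 3 members, among the 21 alternatives.

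The members with the lowest p in cycling cells were Atp5g2, Cox7a2l and Sdha. Atp5g2 had 271 and 118 TPM in cycling cells against 28.2 and 57.5 TPM in granule-high cells (log2 fold 2.12, SE 0.65, limma adjusted p = 0.328). Sdha had 131 and 184 TPM against 24.4 and 61.8 TPM (limma adjusted p = 0.397). Cox7a2l had 87.9 and 34.6 TPM in cycling cells against 168 and 103 TPM (limma adjusted p = 0.396). In each of the 3 genes the groups did not overlap, but none passed the adjustment. Among cells with 1000 to 2500 genes, which left 7 and 10 cycling cells, the ratio of sums was 1.0 and 1.16. After rescaling without the 9 abundant genes, over all cells, it was 1.27 and 1.22. The part of the number of genes detected in the level of cycling cells was not tested further.

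Other genes of mitochondria and of energy metabolism were compared in the same fit. Between other cells and non-cycling neutrophils, Slc25a5, an ADP/ATP carrier of the inner membrane, rose. It had 1186 and 1541 TPM in other cells, 409 and 321 TPM in granule-low, 257 and 93.2 TPM in granule-intermediate and 275 and 157 TPM in granule-high cells (log2 fold 2.57, SE 0.35, limma adjusted p = 0.00128). Of 12 tested carrier, porin and import genes 5 rose (Slc25a5, Slc25a3, Vdac3, Tomm20 and Hspd1) and none fell. Of 27 mitochondrial ribosomal protein genes 7 rose and none fell. Of the citric acid cycle genes 1 of 11 rose (Pdhb), of the complex IV assembly genes 1 of 8 (Cox16) and of the other assembly genes 1 of 7 (Atpif1). Of all genes tested in this comparison, 13.9% rose and 7.02% fell. The median log2 folds were 1.73 for carriers, 1.81 for ribosomal proteins, 1.80 for the citric acid cycle, 0.51 for complex IV assembly and 1.84 for the other assembly genes. Over all genes tested the median was 0.47. The call of Pdhb was lost in 14 and its sign changed in 2 of 23 alternatives, and the call of Cox16 was lost in 9 of 18. That of Tomm20 was lost in 12 of 23. Cyc1, the cytochrome c1 subunit of complex III whose symbol lies outside the rule, rose, and Cycs, cytochrome c itself, did not pass (log2 fold 2.45, limma adjusted p = 0.0587). None of the 2 tested biogenesis regulators or 2 tested coenzyme Q genes passed. All 7 tested proliferation genes rose, but neutrophils with Mki67 had been taken out, whereas 11 other cells with Mki67 were kept. The rise of Mki67, and of genes expressed together with it, is thus not independent of how the classes were drawn.

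Genes of glycolysis and of the NADPH oxidase, the enzyme of the oxidative burst, held more members that fell than rose in the other cells. Of all genes tested, 7.02% fell and 13.9% rose there. Of 16 glycolysis genes 5 fell (Pkm, Gpi1, Hk3, Gapdh and Slc2a3) and 1 rose (Tpi1, whose call was lost in 13 of 23 alternatives). Of 6 NADPH oxidase genes 3 fell (Ncf1, Ncf4 and Rac2) and 1 rose, Cybb, the catalytic subunit, whose call was lost in 11 of 23 alternatives. Gapdh had 2912 and 3025 TPM in other cells, 3426 and 3636 TPM in granule-low cells and 5500 and 5543 TPM in granule-high cells. Among neutrophils, Cybb rose from 104 and 39.9 TPM in granule-low to 938 and 907 TPM in granule-high cells (log2 fold 3.82, limma adjusted p = 0.000971), and Gapdh and Mrpl45 rose too. Slc25a3, the phosphate carrier that supplies complex V, fell in the same comparison, from 460 and 431 TPM to 127 and 188 TPM (log2 fold -1.52, SE 0.35, limma adjusted p = 0.0342), a call lost in 11 of 20 alternatives. In granule-intermediate against granule-low cells Hspd1 and Mrpl30 fell, and none of the other genes in these lists passed. The call of Hspd1 was lost in 9 of 20 alternatives and that of Mrpl30 in 5 of 17.

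The promoters of the members were searched because nuclear respiratory chain genes are known as targets of NRF1, of ETS-family factors such as GABP, and of YY1. RefSeq promoters (GRCm38.p6, 250 bases before to 50 after the start) were found for 76 of the 92 members, 82 promoters in all. The NRF1 motif (GCGC, any 1 base, then TGCGC), searched on both strands like the others, was in 24.4% of them and in 4.6% of all 32851 promoters. The ETS core CCGGAAG was in 20.7% against 8.86%, and the YY1 core AAGATGGC in 14.6% against 2.75%. Members' promoters were richer in G and C (median 58% against 52.7%); among promoters with 50% to 70% GC the shares were 28.2% against 6.61%, 21.1% against 13.4%, and 15.5% against 3.54%. Among members tested for expression the NRF1 motif was in 24.2% and among those too sparse for testing in 25%. The ETS core was in 24.2% and 6.25% (1 of 16 promoters) in the same order, and the YY1 core in 15.2% and 12.5%.

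Sequences around the motif are shown for called members of complexes II, V and I, to let the matches be compared. Each is written 5′ to 3′ on the gene's strand with the motif, on either strand, in capitals. They lie at chr11:115420041-115420070 and chr11:115419941-115419967 (Atp5h, minus strand; NRF1 and ETS), chr15:102671070-102671099 (Atp5g2, minus strand; NRF1), chr13:74350319-74350348 and chr13:74350276-74350305 (Sdha, minus strand; NRF1) and chr17:56717692-56717721 (Ndufa11, plus strand; NRF1).
Atp5h, NRF1 motif: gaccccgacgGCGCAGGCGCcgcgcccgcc
Atp5h, ETS core: aaggagagaaCTTCCGGcaactctctt
Atp5g2, NRF1 motif: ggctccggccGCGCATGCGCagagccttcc
Sdha, first NRF1 motif: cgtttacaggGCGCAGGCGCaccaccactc
Sdha, second NRF1 motif: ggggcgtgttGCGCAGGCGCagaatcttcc
Ndufa11, NRF1 motif: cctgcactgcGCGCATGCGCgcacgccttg
The motifs start 141 and 38 bases before the start site of Atp5h, 42 before that of Atp5g2, 98 and 55 before that of Sdha, which has another at 10, and 60 before that of Ndufa11. The stretches at the ETS core of Atp5h, in Atp5g2 and at the second motif of Sdha overlap annotated exons of the same gene, and the first of Sdha overlaps an exon of Ccdc127; the other 2 overlap none. No motif was found before the start sites of Ndufc2 and Atp5g1, which were also called, nor before that of Cox8b, which was listed at 0 in every cell. A match describes the letters and not binding.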

How the data were processed

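The authors deposited TPM values for 326 cells; RSEM and mm10 are the tool and build named in the submitters' processing notes. Their versions, the aligner and the annotation: not given in the sources used here. A further 58 labelled cells were not analysed here. The deposited TPM values sum to 1000000 per cell and include 0 mitochondrially encoded genes. All 326 cells had at least 500 genes above 0. No doublet caller was run. Members and lists were chosen with earlier results of these data known.

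TPM was averaged over the cells of each class in each replicate, giving 10 averages. Genes with a mean of at least 5 TPM and a value above 0 in 10% of cells or more were tested on log2(mean TPM + 1) with limma 3.58.1 (R 4.3.3; intensity trend, robust), and the replicate entered as a block, since every replicate gives a value to each class; 4 residual degrees of freedom remained. Folds on this scale understate changes of low genes, and exceed plain ratios where a class average is 0. The adjusted p threshold was 0.05. The script was tested on simulated data. For non-cycling neutrophils, the fit and the ratios of summed TPM take the mean over 3 classes. TPM values and ratios of single genes pool the cells of these classes. Zeros may be failed estimates, hence "listed at 0".

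Genes named were, per comparison, up to 10 called members in each direction by fold, the 3 most abundant per complex, the Sdh genes, isoform pairs, and up to 4 called genes of each further list; others were chosen after their values were seen. Further lists were named by function. Marker lists for B, T or NK cells, border macrophages, glia, neurons, endothelial and erythroid cells were also counted. Alternatives covered scaling, class borders, pseudocounts, filters, single replicates and gene numbers. With a single replicate, averages were taken per plate, so p-values there measure only the spread between its plates. Protein sequences were not used here.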

Additional observations from a re-analysis of the deposited data

Results flagged for a closer look

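Summed TPM was compared between the 4 plates in 35 combinations of complex and class, and in 4 of them 1 plate stood apart from the other 3 by a gap above Dixon's 95% critical value; chance gives about 1 in 20, or 1.75. Over all members, granule-low cells of plate 4 summed to 6128 TPM, against 7531 to 7752 TPM on the other plates. Complex III in the other cells of plate 4 summed to 1686 TPM, against 1906 to 1918 TPM. The complex I assembly factors, of which Ndufaf7 was above 0 in 125 cells and the others in 2 to 26, summed to 70.9 TPM in granule-low cells of plate 1 (23.3 to 30.5 TPM elsewhere) and to 198 TPM in cycling cells of plate 4 (27.5 to 36.6 TPM elsewhere).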

How the results depend on the processing

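In the granule-high against granule-low comparison, 1 member was called, and the count was 0 with no replicate block (dropping the pairing of classes by replicate), with no filter on low values, with Mki67 at 10 TPM, with granule borders of 6 and 11, and among cells with 1000 to 2500 or 1500 to 2200 genes. It was 2 with granule borders of 4 and 9, 3 with median-ratio scaling and with a neutrophil border of 30000 TPM, 4 after rescaling and with weights, 5 with averages per plate and 11 with averages of log values; leaving out a replicate gave 0 to 2. For granule-intermediate against granule-low cells, 1 member was called, and 0 with averages of log values, no filter, or either range of genes. It was 2 with averages per plate and with either other pair of granule borders, and 1 to 3 without a replicate. For cycling cells, 0 members were called and 3 with averages of log values. For other cells against non-cycling neutrophils, 33 were called, and 71 with averages of log values, 20 after rescaling and with non-cycling neutrophils as 1 class, 19 with no filter and without other cells that had Mki67, 3 among cells with 1000 to 2500 genes, 1 among those with 1500 to 2200, and 3 to 14 without a replicate. With no replicate block the last 3 counts were 1, 0 and 33, of which 32 were among the 33 called with the pairing. Of all genes, averages of log values called 13.8% in the first comparison, 6.12% in cycling cells and 53.9% in other cells; in the last, rescaling called 19.8%, no filter 12.9% and 1 class of neutrophils 13%.

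The values named here changed sign where cells were restricted; scaling also moved the signs of single members and the median of all genes, as given with each comparison. Among cells with 1000 to 2500 genes, the members' median in cycling cells was -0.027, against -0.26 over all genes. In other cells of that range Ndufa2 was at -0.43, Atp5g2 at -1.25, Pdhb at -1.44, Cyc1 at -1.25 and Ube2c at -0.60. Among cells with 1500 to 2200 genes (3 to 47 cells per average), the members' median was 0.55 in granule-intermediate and -0.32 in cycling cells. Over all genes the median was 0.45 and -0.64 there. In other cells of this narrower range Ndufa2 was at -0.14, Pdhb at -1.25, Atpif1 at -5.40, Cyc1 at -4.98 and Mrps17 at -2.74. Without other cells that had Mki67, Birc5 was at -0.29. These restrictions leave fewer cells and genes; the cause was not tested otherwise. The range of 1500 to 2200 genes, the restrictions of the other and the cycling cells, and the single class of neutrophils were chosen after seeing the data. For the named members, 189 values kept direction and call, 58 kept direction and lost the call, and 3 changed sign. Depth is unknown, so values of 0 in single cells limit all sparse members.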
